A study of Monodelphis domestica with 2 samples.

Results

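Expression of 5 genes known from neurons of the striatum was followed through area V1, the primary visual cortex, of Monodelphis domestica, the gray short-tailed opossum: DRD1 (ENSMODG00000023683), DRD2 (ENSMODG00000014196), PPP1R1B (ENSMODG00000012788), GPR6 (ENSMODG00000023352) and RARB (ENSMODG00000014926). They were chosen by gene symbol, and the 5 were found among 30800 genes, of which 11590 carried a symbol. V1 nuclei of 2 adult males, animal 1 aged 1.5 years and animal 2 aged 2 years, had been stained, sorted and profiled by single-nucleus RNA sequencing, with 2 libraries per animal (1A and 1B, 2A and 2B) and no treatment or genotype contrast. The 32764 nuclei that carried the authors' labels, of 36558 barcodes, fell into 3 classes, 18 subclasses and 44 types. Glutamatergic subclasses were the intratelencephalic groups IT_A to IT_D, the near-projecting, pyramidal tract and corticothalamic groups L5NP, L5PT and L6CT, and L6b. GABAergic subclasses were Pvalb, Sst, Vip, Lamp5 and Frem1, and the non-neuronal ones were astrocytes (Astro), oligodendrocytes (OD), their precursors (OPC), microglia (Micro) and endothelial cells (Endo).

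DRD1 encodes the D1 dopamine receptor, which couples to stimulatory G proteins and raises cAMP, and DRD2 encodes the D2 receptor, which couples to inhibitory G proteins and lowers it. PPP1R1B encodes DARPP-32, a target of protein kinase A that inhibits protein phosphatase 1 once phosphorylated, and so lies downstream of both receptors. GPR6 encodes an orphan receptor with high constitutive cAMP signalling that is abundant in D2-type striatal neurons, and RARB encodes retinoic acid receptor beta, a nuclear receptor prominent in the developing and adult striatum. In mammalian cortex, dopamine fibres are sparse compared with the striatum, and D1-type receptors are known in deep-layer projection neurons.

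The libraries held 55625042 to 69706055 UMIs each, and the median depth per class and animal ran from 2111.5 to 8115 UMIs per nucleus, lowest in non-neuronal nuclei. Any 2 libraries shared 13 to 26 barcodes. Of 41 listed cell type markers 38 had a symbol, and 27 were highest in the group they mark in both animals. None of the 3 listed L5NP markers (TSHZ2, HTR2C and NXPH2) was highest in L5NP, where the L5PT marker FEZF2 and the L6b marker CPLX3 peaked. FREM1 peaked in Lamp5 and ERBB4, listed for Pvalb, in Vip, and PVALB had no symbol. MOXD1, the other L6b marker with a symbol, peaked in Sst. CCN2, listed for L6CT, peaked in microglia, while FOXP2 and SYT6 peaked in L6CT. In animal 1 BCL11B, listed for L5PT, peaked in L5NP, and CUX2, listed for IT, in Sst. L5NP, L5PT, L6b, Frem1 and Pvalb are thus used here as the authors' labels. Endo (29 and 36 nuclei), L6b (56 and 53) and IT_D (58 and 315) were small. Levels are UMIs of a gene per 1000000 UMIs (CPM) summed over the nuclei of a subclass in an animal, with the SD over 2 animals. Each subclass was compared with the mean of the other subclasses of its class by edgeR's quasi-likelihood test on the summed counts (n = 2 animals), with Benjamini-Hochberg adjustment over all genes and 18 comparisons and a threshold of 0.05. The log2 fold change of that fit is set against the mean of the other subclasses' log levels, so it can exceed the ratio of the CPM means. Where another subclass held 0 UMIs it also depends on the fit's prior count and is no bound.

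Between them DRD1, DRD2, PPP1R1B and RARB gave 17 calls over 18 subclasses, of 72 tests. Across all 17227 genes tested 17.1% of such pairs were called. GPR6 fell below the low-count filter. By the mean of the animals each gene had its highest levels in a different set of nuclei, namely DRD1 in L5NP and L6CT, DRD2 in L6CT, PPP1R1B in astrocytes, IT_A and L6CT, GPR6 in IT_A and IT_B, and RARB in Pvalb nuclei.

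**Figure D1:**
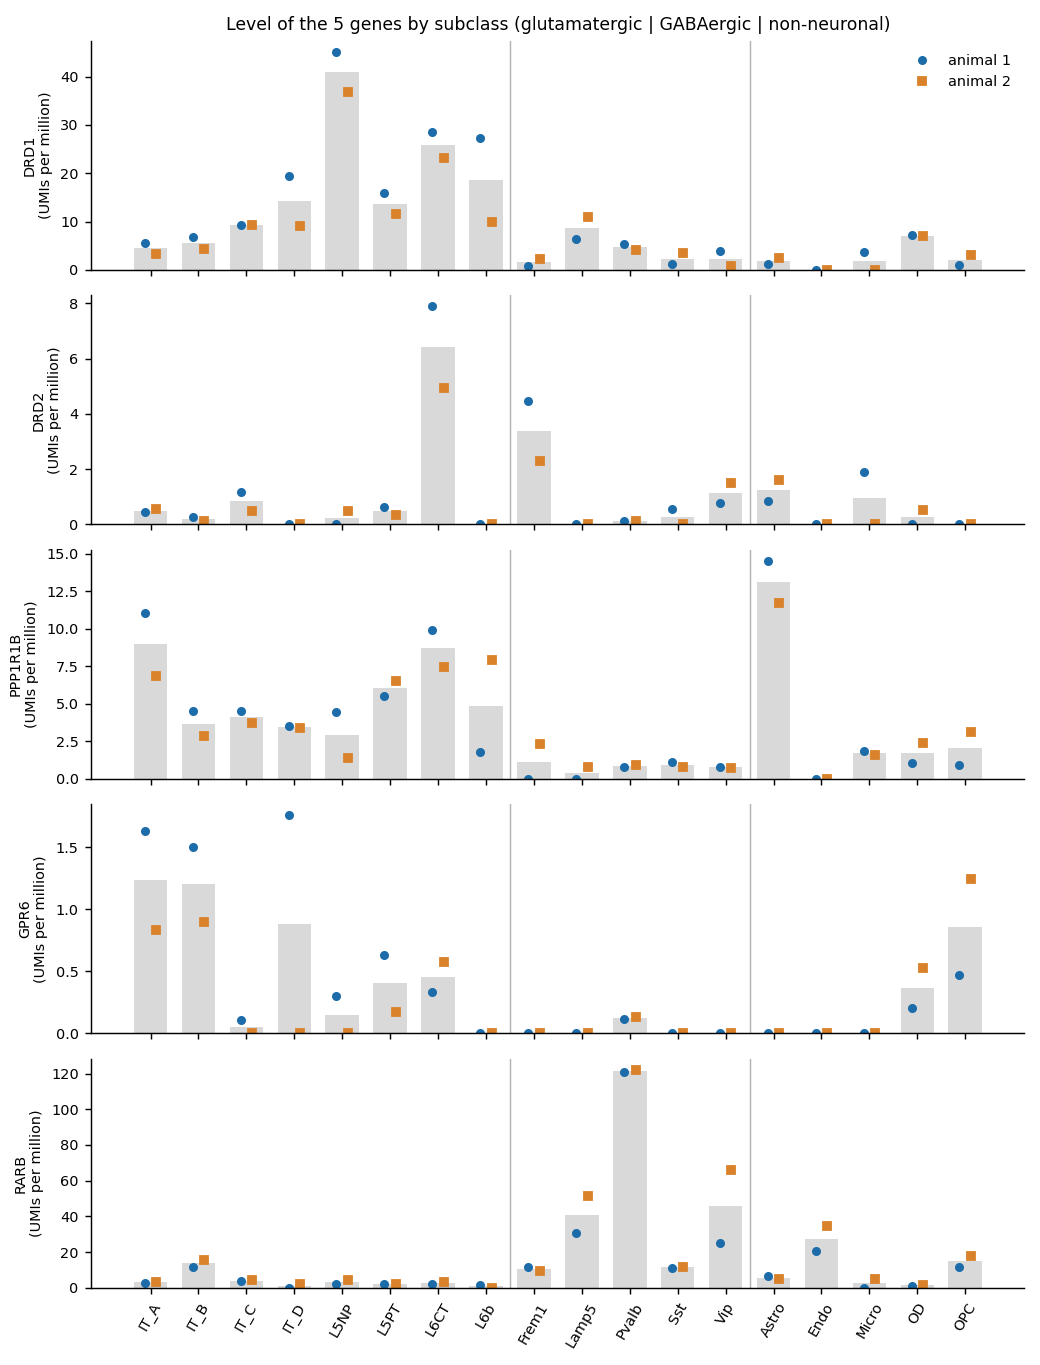
Level of the 5 genes (CPM) in each of the 18 subclasses. Bars give the mean of 2 animals, circles animal 1 and squares animal 2, and vertical lines part the glutamatergic, GABAergic and non-neuronal subclasses. DRD1 was highest in L5NP at 45.2 and 36.8 CPM, and RARB in Pvalb at 121.0 and 122.3 CPM, each above the next subclass in both animals.

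DRD1, the D1 receptor, was mostly glutamatergic and highest in the subclasses labelled L5NP and L6CT. In L5NP it stood at 45.2 CPM in animal 1 (151 UMIs) and 36.8 CPM in animal 2 (78 UMIs), and in L6CT at 28.5 CPM (425 UMIs) and 23.2 CPM (363 UMIs). The L5NP range lay above that of L6CT, whereas L6CT overlapped L6b (27.2 and 9.92 CPM), and L6b overlapped IT_D (19.4 and 9.15 CPM), which overlapped L5PT (15.8 and 11.5 CPM). IT_C, at 9.36 and 9.37 CPM, was lower by its mean but lay within the range of IT_D. The lowest glutamatergic subclasses were IT_B at 6.77 and 4.36 CPM and IT_A at 5.61 and 3.25 CPM.

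Against the other glutamatergic subclasses, DRD1 was higher in L5NP by 1.76 ± 0.24 (log2 fold change ± SE, adjusted p = 1.53e-06), where 16.0% of genes were called. It was higher in L6CT by 1.16 ± 0.22 (adjusted p = 0.00021), where 14.0% were called. It was lower in IT_A, with a log2 fold change of -1.72 ± 0.27 (adjusted p = 1.46e-05, 6.22% of genes called lower), and in IT_B, with -1.24 ± 0.29 (adjusted p = 0.00241, 5.87% called lower). Neither call held with every nucleus thinned to 1000 UMIs, where L6b held 0 DRD1 UMIs and the differences were poorly fixed (-0.94 with an SE of 56.9, and -0.60 with an SE of 15.4). With the animal as a block, IT_C also passed (-0.50 ± 0.17, adjusted p = 0.0311), against an adjusted p of 0.223 without it. L5PT did not pass (0.18 ± 0.26, adjusted p = 0.773).

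The class as a whole held 90.6% of the DRD1 UMIs of labelled nuclei in animal 1 (1046 of 1154) and 89.8% in animal 2 (844 of 940), with 74.5% and 81.5% of all UMIs. Over subclasses the glutamatergic mean exceeded the GABAergic mean by 2.12 ± 0.24 on the log2 scale (adjusted p = 2.26e-08), in a comparison that called 39.9% of genes. Class sums gave a smaller 1.51 ± 0.23 (adjusted p = 0.0019, 32.9% called), and with nuclei thinned to 1000 UMIs the fit gave 2.73 without a usable error (SE 5048, adjusted p = 1.0), Frem1 and Vip then holding 0 UMIs in both animals. Over the 5 GABAergic subclasses, Lamp5 held 6.46 and 10.9 CPM on 8 and 14 UMIs, and Pvalb 5.34 and 4.17 CPM. The difference of Lamp5 from the other GABAergic subclasses was 1.84 ± 0.53 (adjusted p = 0.0136, 13.4% of genes called), and that of Pvalb did not pass (0.79 ± 0.42, adjusted p = 0.241).

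Between neuronal and non-neuronal subclasses, a comparison that called 44.7% of genes and shifted the median gene by 0.44, DRD1 was higher in neurons (adjusted p = 0.000639), and sums per class, with both neuronal classes weighted equally, gave 0.81 ± 0.22 (adjusted p = 0.0157). Thinned, the fit gave 1.26, again without a usable error (adjusted p = 1.0). Oligodendrocytes were the exception among glia. DRD1 stood there at 7.16 and 7.07 CPM on 35 and 27 UMIs, 4.89-fold and 5.10-fold the mean CPM of the other non-neuronal subclasses, and the test called the difference (adjusted p = 0.00496, 28.4% of genes called). Endo held 0 DRD1 UMIs in both animals. With Endo and the other small subclasses left out, the log2 fold change was 2.24 (adjusted p = 0.000775), and the median over all genes in the main OD comparison was shifted by 0.44. The signal lay in types OD_2 (11.7 and 17.96 CPM) and OD_3 (12.52 and 9.62 CPM), against 4.31 and 2.80 CPM in OD_1, on 8 to 16 UMIs per type and animal in OD_2 and OD_3. These levels were not tested between types.

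By nucleus, 27.1% of L5NP nuclei had a DRD1 UMI in animal 1 (118 of 436, 95% Clopper-Pearson lower bound 22.9%) and 20.5% in animal 2 (63 of 308, lower bound 16.1%). In L6CT it was 21.5% (361 of 1677) and 16.4% (321 of 1952). Microglia, which should lack the gene, had 2 positive nuclei of 332 and 0 of 391, at median depths of 1430 and 1483 UMIs against 7167 and 6044 in L5NP. After every nucleus was thinned to 1000 UMIs the shares were 5.79% and 3.57% in L5NP, 2.69% and 2.36% in L6CT, 0.833% and 0.792% in OD, and 0.311% and 0% in microglia, so the order of L5NP, L6CT and microglia was the same at equal depth.

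**Figure D2:**
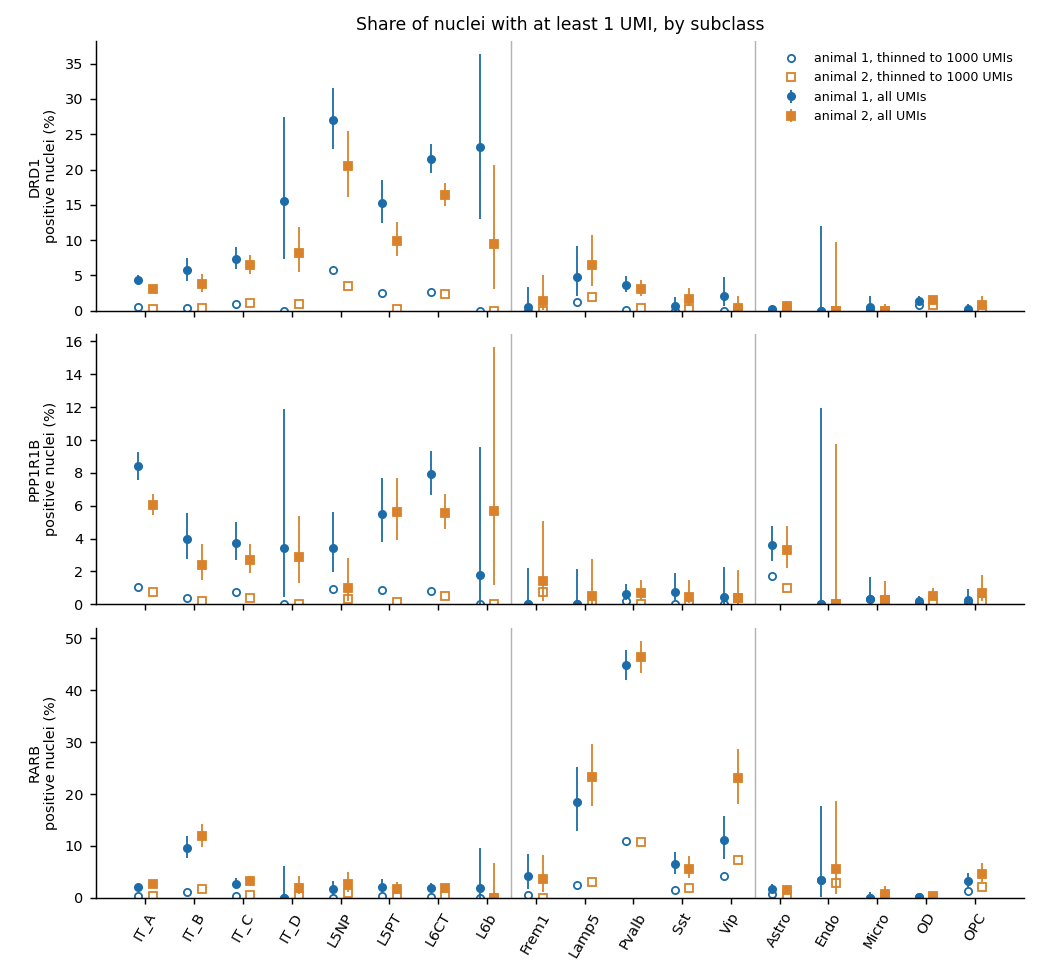
Share of nuclei (%) with at least 1 UMI of DRD1, PPP1R1B or RARB in each subclass, for animal 1 (circles) and animal 2 (squares). Filled points use all UMIs, with exact 95% intervals for counting error, and open points the same nuclei thinned to 1000 UMIs. RARB reached 44.8% and 46.4% of Pvalb nuclei, and 127 of 1155 and 107 of 988 nuclei after thinning.

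DRD2, the D2 receptor, was far sparser, with 164 UMIs over the labelled nuclei of animal 1 and 126 in animal 2, and it was concentrated in L6CT. That subclass held 118 and 77 of them, at 7.90 and 4.93 CPM. No other glutamatergic subclass exceeded 1.18 CPM in either animal (IT_C, animal 1), and IT_D and L6b held 0 UMIs. L6CT thus stood at 22.0-fold and 17.4-fold the mean CPM of the other glutamatergic subclasses, and the test called it (adjusted p = 1.39e-08). With the small subclasses IT_D and L6b left out of the fit the log2 fold change was 4.02 (adjusted p = 2.02e-08).

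Outside L6CT, Frem1 interneurons were the next highest, at 4.46 and 2.31 CPM, but on 5 and 2 UMIs. These came from libraries 1A and 2A, in 3 and 2 nuclei, and 1B and 2B held 0, so without either library that animal's level is 0. The test called this difference from the other GABAergic subclasses (adjusted p = 0.00573, 11.3% of genes called), where Lamp5 held 0 UMIs in 168 and 202 nuclei. At 6793 and 6293 UMIs per nucleus those counts allow 1.79% and 1.49% of nuclei with a UMI and set no limit on nuclei that express the gene. The level in animal 2 was below that of 3 counts, so no size is given. At the level of classes, DRD2 stood at 1.91 and 1.17 CPM in glutamatergic, 0.563 and 0.362 in GABAergic and 0.361 and 0.699 in non-neuronal nuclei. The comparison over subclasses, in which IT_D, L6b and Lamp5 held 0 UMIs, called no difference in DRD2. Its log2 fold change had no fixed direction, at -0.22 by edgeR (adjusted p = 1.0), 0.08 by DESeq2 (adjusted p = 0.941) and 1.08 by edgeR without the small subclasses (adjusted p = 0.356), and at 0.53 without animal 1 and -0.55 without animal 2. Counts summed per class and animal instead, an alternative added after seeing the data, gave 1.82 ± 0.44 (log2, adjusted p = 0.0165, 32.9% of genes called), so this call holds for class sums and not over subclasses.

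A DRD2 UMI was present in 5.25% of L6CT nuclei in animal 1 (88 of 1677) and 3.13% in animal 2 (61 of 1952). OD had 0 of 2280 and 2 of 1767, at median depths of 1924 and 1909 UMIs against 8342 and 7275 in L6CT. Thinned to 1000 UMIs, 0.957% and 0.359% of L6CT nuclei remained positive, and 0 in OD in both animals. Within L6CT the types did not keep an order between the animals. DRD2 was highest in L6CT_1 in animal 1 (11.3 CPM, against 4.34 in animal 2) and in L6CT_3 in animal 2 (6.06 CPM, against 5.64 in animal 1), and L6CT_4 was lowest in both (1.28 and 2.87 CPM on 2 and 7 UMIs). DRD1 was more even over the same types, from 26.1 to 40.6 CPM in animal 1 and from 20.9 to 25.8 CPM in animal 2, with L6CT_2 highest in both.

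In L6CT, where both receptors were called, 27 nuclei of animal 1 and 16 of animal 2 held UMIs of DRD1 and DRD2. DRD1 was present in 30.7% and 26.2% of DRD2-positive nuclei and in 21.0% and 16.1% of the others. Depth was not held equal in these shares, and at 1000 UMIs too few nuclei positive for both remained (1 and 0). Thinned to 5000 UMIs, a depth added after seeing the data, 7 nuclei were positive for both where independence gives 5.99, and 4 where it gives 3.11. The DRD1 share among DRD2-positive nuclei was then 16.7% (95% interval 6.97% to 31.4%) and 14.3% (4.03% to 32.7%), against 14.2% and 11.1% in the others. A joint excess was thus not detectable at equal depth. For DRD1 with PPP1R1B in L6CT the joint counts at 5000 UMIs were 9 and 10, where independence gives 10.4 and 6.67.

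PPP1R1B, the gene of DARPP-32, was found in both glutamatergic neurons and astrocytes. Astrocytes were highest, at 14.5 and 11.7 CPM (51 and 29 UMIs), and their range did not touch that of IT_A, at 11.1 and 6.86 CPM (401 and 369 UMIs). IT_A overlapped L6CT, at 9.91 and 7.48 CPM, and L5PT followed at 5.54 and 6.54 CPM. The other glutamatergic subclasses lay between 1.42 and 7.93 CPM, the extremes being L5NP and L6b in animal 2 on 3 and 4 UMIs.

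Within the glutamatergic class PPP1R1B was higher in IT_A by 1.01 ± 0.25 (log2, adjusted p = 0.0042, 11.8% of genes called higher) and in L6CT by 0.93 ± 0.26 (adjusted p = 0.0127). L5NP, where DRD1 peaked, did not pass (-0.88 ± 0.42, adjusted p = 0.172). In IT_A PPP1R1B was called higher and DRD1 lower, though the DRD1 difference was -0.94 and not called with nuclei thinned to 1000 UMIs. The glutamatergic mean exceeded the GABAergic mean by 2.77 ± 0.35 (adjusted p = 1.57e-07), and no GABAergic subclass rose above 2.31 CPM (Frem1, animal 2, 2 UMIs).

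In astrocytes PPP1R1B stood at 15.1-fold and 6.65-fold the mean CPM of the other non-neuronal subclasses and was called higher (adjusted p = 3.01e-05), in a comparison that called 26.5% of genes and shifted the median gene by 0.46. Endo held 0 UMIs. Without the small subclasses (Endo, L6b and IT_D) the log2 fold change was 2.97 (adjusted p = 5.78e-06). Neuronal and non-neuronal subclass means did not pass a test of their difference (1.24, adjusted p = 0.698), and the direction was not fixed, at -0.20 by DESeq2 (adjusted p = 0.728) and -0.30 without the small subclasses (adjusted p = 0.554). Set against non-neuronal nuclei (5.32 and 5.13 CPM), the log mean of the glutamatergic (8.59 and 6.09 CPM) and GABAergic class (0.751 and 0.941 CPM), each with equal weight, was lower (-0.96 ± 0.22, adjusted p = 0.00695, 61.2% of genes called), although the larger glutamatergic class alone stood higher.

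A PPP1R1B UMI was found in 3.61% of astrocytes (46 of 1273) and 3.31% (27 of 816), at median depths of 2522 and 2781 UMIs. IT_A had 8.39% and 6.04% at 7794 and 8753 UMIs, and OD 0.219% and 0.509%. Thinned to 1000 UMIs the shares were 1.73% and 0.980% in astrocytes, 1.05% and 0.719% in IT_A, and 0.0877% and 0.226% in OD. Among the IT_A types IT_A_4 was highest in both animals, at 18.1 and 12.7 CPM, and IT_A_2 lowest, at 6.21 and 3.20 CPM. DRD1 was also highest in IT_A_4 (9.33 and 6.51 CPM). In L6CT, PPP1R1B was highest in L6CT_4 (11.5 and 13.1 CPM on 18 and 32 UMIs), though in animal 1 L6CT_3 was close (11.1 CPM). The 3 astrocyte types ranged from 7.87 to 17.4 CPM with no order shared by the animals.

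**Figure D3:**
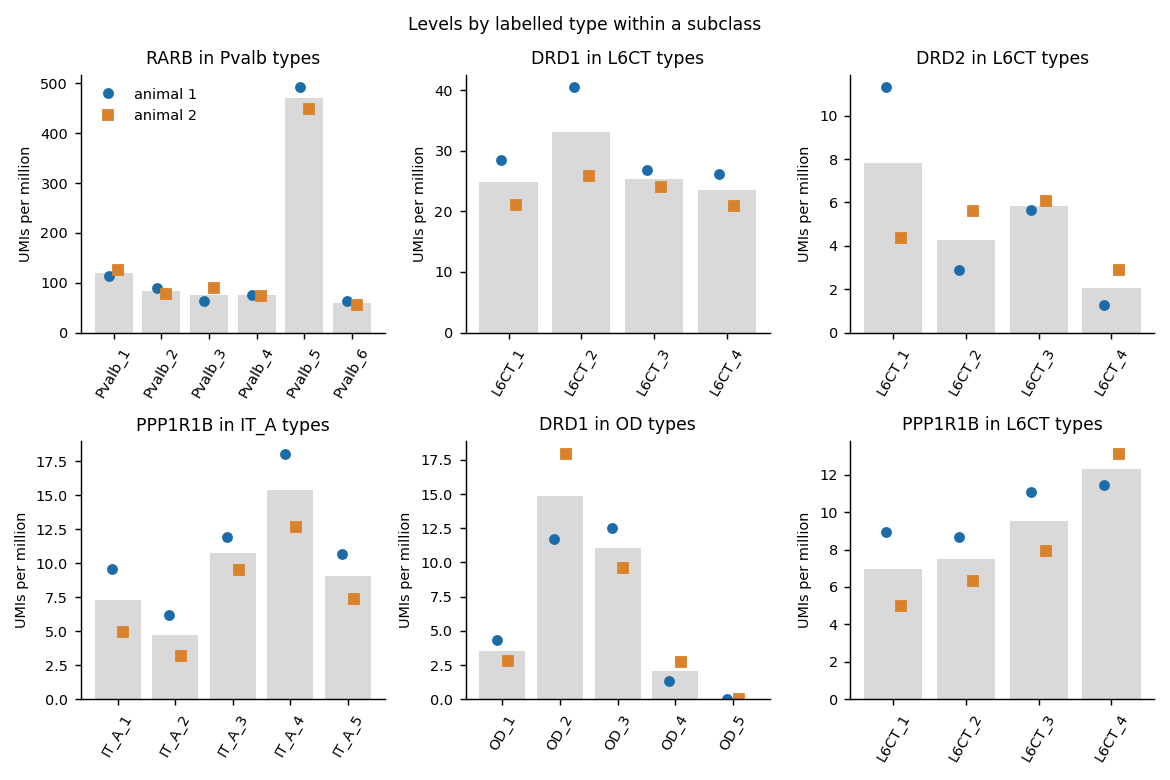
Levels (CPM) by labelled type within a subclass, for RARB in Pvalb, DRD1, DRD2 and PPP1R1B in L6CT, PPP1R1B in IT_A and DRD1 in OD. Bars give the mean of 2 animals, circles animal 1 and squares animal 2. RARB in Pvalb_5 reached 493 and 449 CPM, above each other Pvalb type in both animals.

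GPR6, the orphan receptor, was near the limit of detection, with 86 UMIs over labelled nuclei in animal 1 and 67 in animal 2. Of these 83 and 62 were glutamatergic. IT_A held 59 and 45 (1.63 and 0.837 CPM) and IT_B 12 and 7 (1.51 and 0.898 CPM), and the ranges of these 2 subclasses overlapped. Single UMIs put IT_D at 1.76 and 0 CPM (1 and 0 UMIs) and OPC at 0.474 and 1.24 CPM (1 and 2 UMIs), so IT_A and IT_B were not highest in each animal. L6CT held 5 and 9 UMIs, and L6b and 4 of the 5 GABAergic subclasses held 0. A UMI was present in 1.30% (56 of 4301) and 0.791% (44 of 5563) of IT_A nuclei. Astrocytes had 0 of 1273 and 0 of 816, which allows 0.236% and 0.368% of nuclei with a UMI, at a median depth of 2522 and 2781 UMIs, and sets no limit on nuclei that express the gene. At 1000 UMIs 3 and 2 IT_A nuclei remained positive, too few to compare.

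Without the low-count filter, GPR6 was called higher than in the other glutamatergic subclasses in IT_A (adjusted p = 0.00169, 12.4% of genes called) and in IT_B (adjusted p = 0.0129, 11.5% called). With the filter it was not tested, and L6b at 0 UMIs leaves the size undefined. IT_A stood at 2.46-fold and 3.56-fold the mean CPM of the other glutamatergic subclasses, and IT_B at 2.21-fold and 3.97-fold. Of the receptors related to GPR6 by sequence or ligand, S1PR1 alone passed the filter, and it was highest in astrocytes at 37.1 and 42.1 CPM. GPR3, the closest relative with a symbol, stood at 0.690 and 0.837 CPM in IT_A, 2.14 and 2.05 CPM in L6CT and 2.84 and 2.34 CPM in Pvalb.

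RARB, the retinoic acid receptor, was mostly GABAergic. That class held 78.3% (1188 of 1517) and 70.2% (1133 of 1614) of its UMIs, with 15.04% and 11.4% of all UMIs. Pvalb stood at 121.0 and 122.3 CPM (1065 and 939 UMIs), above Vip at 25.3 and 66.1 CPM and Lamp5 at 30.7 and 51.2 CPM, which overlapped. Sst (11.3 and 11.8 CPM) and Frem1 (11.6 and 9.22 CPM) overlapped each other at the low end. The glutamatergic mean lay below the GABAergic mean, with a log2 fold change of -3.31 ± 0.23 (adjusted p = 6.69e-13).

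Within the GABAergic class RARB was higher in Pvalb by 2.52 ± 0.22 (log2, adjusted p = 2.45e-10, 21.3% of genes called), and lower in Sst (-1.75 ± 0.31, adjusted p = 9.44e-05, 16.6% called) and Frem1 (-1.98 ± 0.40, adjusted p = 0.000405). The Sst call was lost with nuclei thinned to 1000 UMIs (-0.80 ± 0.60, adjusted p = 0.501). Vip did not pass (0.68 ± 0.28, adjusted p = 0.107) but did with the animal as a block (0.65 ± 0.21, adjusted p = 0.0225) and without the low-count filter (adjusted p = 0.0367). It was also called with nuclei thinned to 1000 UMIs. Lamp5 did not pass (0.53 ± 0.29, adjusted p = 0.261).

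Pvalb_5 stood apart within Pvalb. This type of 110 and 99 nuclei held RARB at 493 and 449 CPM, and 86.4% (95 of 110, interval 78.5% to 92.2%) and 88.9% (88 of 99, interval 81.0% to 94.3%) of its nuclei were positive. The remaining Pvalb nuclei stood at 85.8 and 91.2 CPM, with 40.4% and 41.7% positive. Pvalb_5 held 35.2% and 31.8% of the RARB UMIs of the subclass, and without it Pvalb was still above Vip and Lamp5 in both animals. Ranked by fold over the other Pvalb types, RARB was 38th of 2458 genes, and the 5 leading genes of Pvalb_5 were CEMIP, LYPD6, CACNA1H, FAM163A and PIEZO2. The types were clustered from these genes, so this is a description.

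Glutamatergic nuclei had little RARB apart from IT_B, at 11.7 and 15.8 CPM (93 and 123 UMIs). IT_B was called higher than the other glutamatergic subclasses (2.70 ± 0.29, adjusted p = 1.53e-08, 11.5% of genes called higher), which ranged from 0 to 4.54 CPM. That put IT_B at 5.69-fold and 5.63-fold the mean CPM of the others, while DRD1 there was called lower at full depth but not after thinning to 1000 UMIs. Among glia RARB was higher in OPC, at 11.9 and 18.04 CPM (1.80 ± 0.46, adjusted p = 0.0052, 23.7% of genes called), and lower in OD, at 1.02 and 1.57 CPM (-2.38 ± 0.69, adjusted p = 0.0134). The OD call was lost on thinning (-2.07 ± 0.81, adjusted p = 0.085), and its log2 fold change was -0.90 without animal 2. The OPC level of animal 1 differed between its libraries, 4.84 CPM in 1A (5 UMIs) and 18.6 CPM in 1B (20 UMIs), against 23.2 and 13.2 CPM in animal 2. The median gene was shifted by 0.46 and 0.44 in the OPC and OD comparisons. Endo, at 20.6 and 34.6 CPM, rested on 1 and 2 UMIs.

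A RARB UMI was present in 44.8% of Pvalb nuclei (518 of 1157) and 46.4% (459 of 989), and in 20.6% and 21.5% at least 2 were. OD, at 1924 and 1909 UMIs per nucleus against 7195 and 6987 in Pvalb, had 0.219% and 0.340%. After thinning 127 of 1155 and 107 of 988 Pvalb nuclei remained positive, and the shares were 4.15% and 7.22% in Vip, 2.38% and 2.97% in Lamp5, 1.06% and 1.60% in IT_B and 0.0877% and 0.226% in OD. The neuronal mean of RARB did not differ from the non-neuronal mean by the test (0.48 ± 0.36, adjusted p = 0.312), but did once the small subclasses, Endo among them, were left out (1.36, adjusted p = 0.000161) and in sums per class (1.81 ± 0.18, adjusted p = 9.19e-05, 61.2% of genes called). Without animal 1 it was -0.09.

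The animals differed in level for several of the genes. With 1 animal of each age, and 2 experimenters named for the isolation of nuclei, age, handling and individual cannot be told apart and no test was possible. Over subclasses with at least 10 UMIs in each animal, DRD1 was lower in animal 2 in 8 of 9, and in 6 of them the libraries of the animals did not overlap. In IT_A its libraries stood at 5.85 and 5.35 CPM against 3.53 and 3.02 CPM. PPP1R1B was lower in 5 of 6, 3 without overlap, with IT_A at 10.9 and 11.2 CPM against 6.16 and 7.45 CPM. DRD2 was lower in 1 of 2. It stood higher in IT_A (0.442 and 0.539 CPM), with overlap, and in L6CT its libraries were at 9.15 and 6.56 CPM against 4.75 and 5.08 CPM. The L6CT fall lay in L6CT_1 (11.3 and 4.34 CPM), whereas L6CT_2, L6CT_3 and L6CT_4 stood higher in animal 2, and L6CT_1 made up 770 of 1677 L6CT nuclei in animal 1 and 445 of 1952 in animal 2. Such separation was common, being found for 29.2% (Endo) to 64.6% (IT_A) of genes by subclass. In IT_A the median gene stood at 0.897 of its level in animal 1, and in L6CT 52.1% of genes had libraries that did not overlap. By subclass 29.6% (IT_A) to 50.8% (OD) of genes were higher in animal 2. Lower in animal 2 without overlap were 15.9% (Endo) to 48.4% (IT_A).

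RARB went the other way. It was higher in animal 2 in 10 of 11 subclasses, 5 without overlap of libraries, while Pvalb was level (ratio 1.01). The ratio was largest in Vip, 2.62, with libraries at 28.9 and 21.3 CPM against 59.3 and 74.0 CPM, followed by Lamp5 at 1.67. Of all genes in Vip 37.7% had libraries that did not overlap, and 17.1% were higher in animal 2 without overlap. By subclass the latter share ran from 13.3% (Endo) to 24.0% (OD). Both Vip types held more RARB in animal 2, Vip_1 at 26.0 and 61.9 CPM and Vip_2 at 23.7 and 73.2 CPM. In Vip the striatal projection neuron marker PENK had 2 and 1 UMIs, whereas PDE10A (347 and 498 CPM) and ADCY5 (180 and 156 CPM), which cortex also expresses, were present. Any part of striatal nuclei in the RARB difference was not tested.

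**Figure D4:**
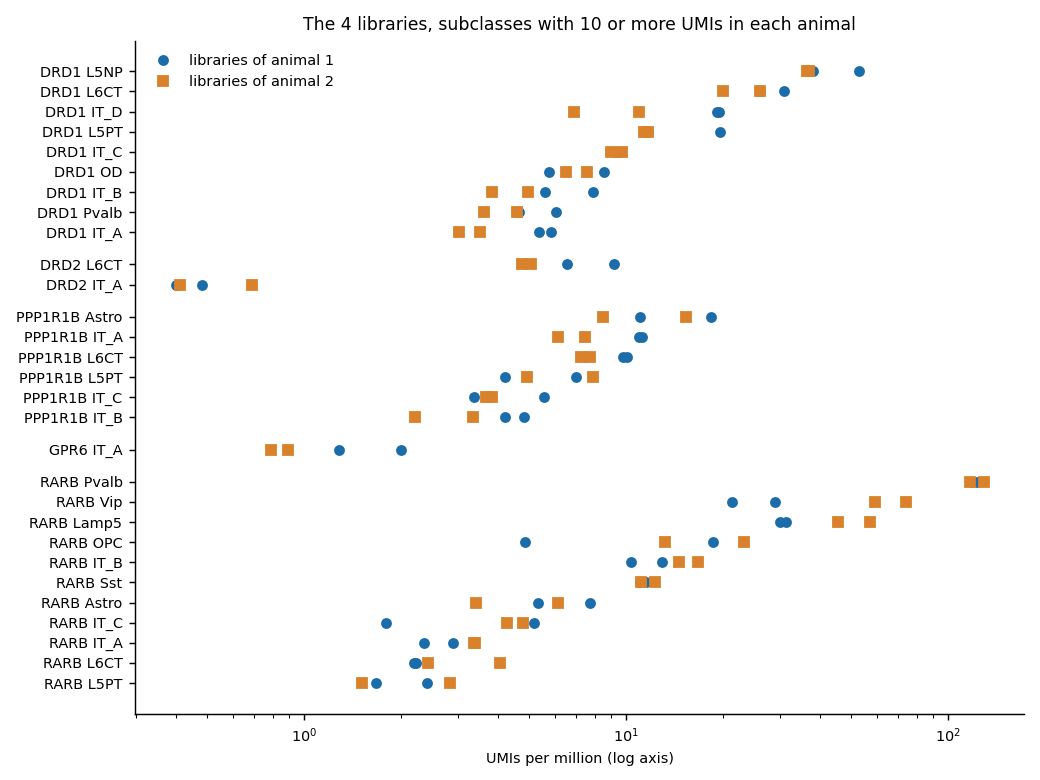
Level (CPM, log axis) in each of the 4 libraries, for subclasses with at least 10 UMIs of the gene in each animal. Circles are the libraries of animal 1 and squares those of animal 2. RARB in Vip stood at 28.9 and 21.3 CPM in animal 1 and at 59.3 and 74.0 CPM in animal 2, while DRD1 in IT_A was lower in animal 2.

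Dopamine genes were followed as a list of 12 that includes DRD1 and DRD2, of which 9 had a symbol and 7 were tested. In L6CT 6 of the 7, or 4 of the 5 besides DRD1 and DRD2, were called higher and 0 lower, against 8.83% of all genes called higher there, with a median log2 fold change of 1.77 against 0.06 over all genes. These were DRD1, DRD2, DRD3, DRD5, MAOA and MAOB. DRD5, the other D1-type receptor, stood in L6CT at 7.03 and 4.80 CPM (adjusted p = 1.78e-05), in L5NP at 10.2 and 5.19 CPM (adjusted p = 3.57e-05) and in L6b at 14.5 and 11.9 CPM on 8 and 6 UMIs. Both D1-type receptor genes were thus called higher in L5NP and L6CT. DRD1 did not pass in L6b (0.48 ± 0.44, adjusted p = 0.585), and DRD5 had 0 UMIs in Lamp5 in both animals and 1 and 0 UMIs in OD, where DRD1 was called higher. DRD3 was called in L6CT at 0.804 and 0.576 CPM (adjusted p = 0.0442), but was highest in astrocytes at 5.13 and 4.05 CPM. MAOB, a monoamine oxidase that breaks dopamine down, stood at 112 and 89.0 CPM in L6CT and at 437 and 422 CPM in astrocytes. In L5NP 4 of the 7 were called higher (DRD1, DRD5, MAOA and MAOB), 3 of them besides DRD1, against 9.13% of all genes.

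Genes of cAMP and phosphatase signalling, the pathway of DARPP-32, were tested in 29 cases. Between glutamatergic and GABAergic subclasses 14 were higher and 6 lower, against 20.5% and 19.4% of all genes, with a median log2 fold change of 0.19 against -0.01. With PPP1R1B rose ARPP21, another striatum-enriched phosphoprotein, at 398 and 413 CPM against 33.0 and 44.4 CPM (3.48 ± 0.09, adjusted p = 4.09e-23). RGS4, which shortens G protein signalling, rose by 2.32 ± 0.14 (adjusted p = 3.03e-14), and the adenylyl cyclase gene ADCY1 by 1.81 ± 0.10 (adjusted p = 3.69e-15). In L6CT 3 of 29 were higher and 1 lower, near the 8.83% and 5.21% of all genes. In L5NP, where DRD1 peaked, 1 was higher and 7 lower, against 9.13% and 6.87% of all genes, with ADCY1 lowest (-0.98 ± 0.16, adjusted p = 2.73e-05).

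Of the striatal projection neuron genes 18 were tested. In L6CT 8 were higher and 2 lower, against 8.83% and 5.21% of all genes, with a median log2 fold change of 0.89. Over the 8 glutamatergic subclasses 7 to 11 of the 18 were called, against 17.1% of all pairs of gene and subclass in the series. In IT_A 7 were higher and 4 lower, against 11.8% and 6.22% of all genes. Of these 11 calls 9 were besides PPP1R1B (higher) and DRD1 (lower). The higher ones in L6CT were DRD1, DRD2 and PPP1R1B, already counted above, and FOXP2, FOXP1, BCL11B, MEIS2 and STRIP2. FOXP2 and BCL11B also mark deep cortical layers, and FOXP2 stood at 1554 and 1539 CPM in L6CT against 162 and 151 CPM in the others. The opioid receptor gene OPRM1 (-2.04 ± 0.31, adjusted p = 1.02e-05) and the opioid peptide gene PDYN, at 1.01 and 0.895 CPM against 5.47 and 5.53 CPM (adjusted p = 0.00917), were lower. In Pvalb 4 of the 18 were higher, namely RARB, BCL11B, PDE10A and ADCY5, and 2 lower, namely FOXP1 and PENK, against 12.9% and 8.41% of all genes.

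In the retinoic acid list 16 genes were tested. In Pvalb, where RARB peaked, 2 were higher and 1 lower, near the 12.9% and 8.41% of all genes. RBP4, a retinol carrier, was higher at 26.4 and 27.5 CPM (1.77 ± 0.26, adjusted p = 5.55e-06), and RXRA, a dimer partner of retinoic acid receptors, was lower at 6.48 and 4.56 CPM against 65.4 and 45.0 CPM in the other GABAergic subclasses (-2.95 ± 0.27, adjusted p = 9.19e-10). RXRA was instead highest in Vip, at 117 and 91.4 CPM (2.25 ± 0.22, adjusted p = 2.41e-09). Vip also held ALDH1A3, which makes retinoic acid from retinal, at 67.9 and 58.7 CPM (adjusted p = 7.8e-14). In L5NP 5 of the 16 were higher and 1 lower, against 9.13% and 6.87% of all genes. Among them were the related enzyme genes ALDH1A1, at 201 and 193 CPM (4.00 ± 0.17, adjusted p = 3.91e-17), and ALDH1A2, at 35.0 and 30.2 CPM (adjusted p = 5.8e-09). L5NP itself held RARB at 2.09 and 4.25 CPM.

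**Figure D5:**
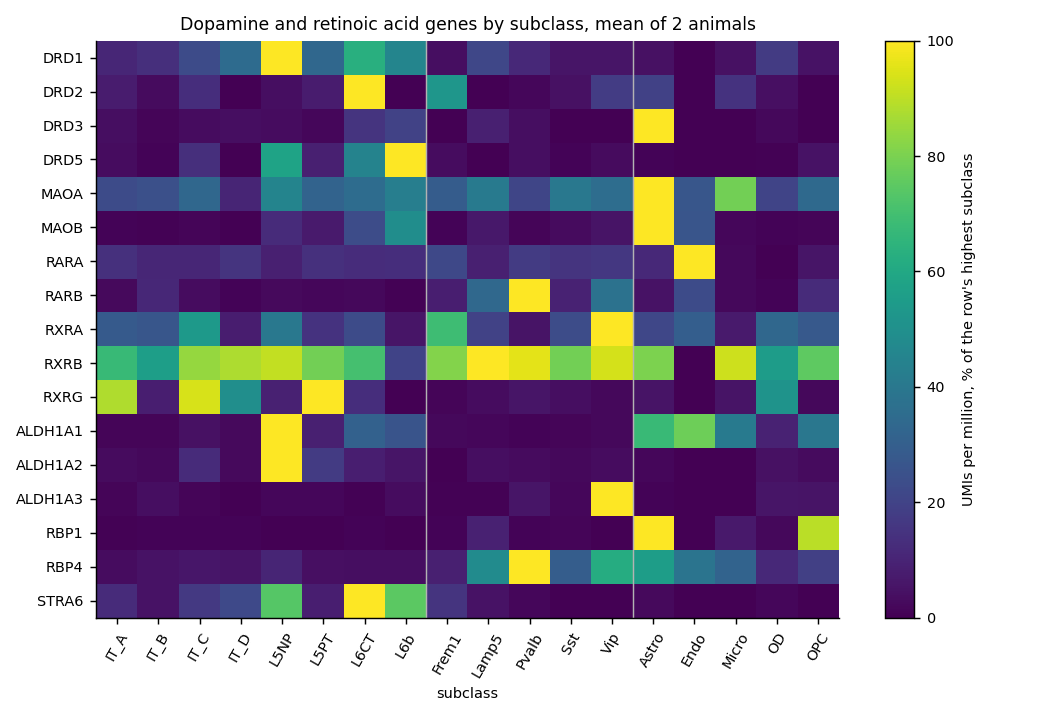
Mean level over 2 animals of dopamine and retinoic acid genes in each subclass, as a percentage of the highest subclass of the same gene (colour). Colours compare subclasses along a row and not genes with each other. DRD1 is highest in L5NP and DRD5 in L6b, and RARB peaks in Pvalb where RXRA is low.

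For each gene the 5 genes of most similar pattern were taken over the 18 subclasses, by Pearson's r of log2(CPM + 1) and the lower r of the 2 animals. The subclasses share libraries and differ in depth, and 8474 or 8475 genes were ranked, so these are descriptions. For DRD1 they were VXN (0.854 and 0.777), FOXO6, HS3ST2, OPRL1 and TBR1, a transcription factor of deep-layer glutamatergic neurons. For PPP1R1B they were ABI2 (0.758 and 0.756), ZDHHC22, WWC1, CADM1 and CA7. For RARB they were FHOD3 (0.858 and 0.769), TCF4, KCNAB3, SP9, a transcription factor of GABAergic lineages, and PTCD3. The likeness was weaker for GPR6 (SLF1, TBPL1, ANKRD28, CFAP52 and CNTN6, led by 0.677 and 0.593) and weakest for DRD2 (FGF10, IL17RD, PDP1, ABCB6 and SLC16A1, led by 0.459 and 0.475), the sparsest patterns.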

How the data were processed

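Nuclei of V1 of 2 opossums were measured, and the 2 libraries of an animal, made from its pooled tissue, counted as 1 replicate. The authors ran Cell Ranger (6.1.1 per the methods) with introns included on the ASM229v1 assembly, with the 3′ ends of Ensembl genes extended, and deposited raw UMI count values. Their deposited Scrublet doublet score is a fraction per nucleus. Of the labelled nuclei 798 were called doublets and kept. Counts are of 3′-biased reads, so levels were compared between nuclei and not between genes. The reference table used here covers another assembly, so no coordinates are given, and no sequences were analysed here.

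Counts were summed per animal and subclass (36 sums) and fitted once in edgeR 4.0.16 (R 4.3.3) with TMM normalization, its low-count filter, which 17227 genes passed, and the quasi-likelihood test. Alternatives were DESeq2 1.42.0 and its size factors, no filter, the animal as a block, doublets removed, nuclei thinned to 1000 UMIs (57 shallower ones left out), small subclasses left out and each animal left out. Intervals of shares are Clopper-Pearson (95%), and a share of 0 was taken to allow 3 counts, both for counting error only. On simulated counts for the L6CT comparison (15426 genes) the test recovered 59 of 100 genes changed by 2-fold and 98 of 100 changed by 4-fold, with 2 false calls. Only genes above a set mean count were changed, and sums were drawn independently. These figures thus do not cover genes as sparse as DRD2 and GPR6, or sums that share an animal. Python 3.11.15, numpy 2.4.6, pandas 2.3.3, scipy 1.17.1 and matplotlib 3.10.9 were used.

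Same-numbered sums come from the same animal, which pairs them. Over 153 pairs of subclasses, the correlation of an animal's departures from each subclass mean was 0.00345 to 0.597 (median 0.116). From each list and comparison up to 4 called genes with the largest fold change could be named, further genes being named after their values were seen, as were the types. The genes, lists and rules were chosen with earlier results of these data known.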

Additional observations from a re-analysis of the deposited data

Results flagged for a closer look

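The authors left clusters of ambiguous nuclei without a subclass, and these carry signal outside the comparisons above. In the 428 ambiguous GABAergic nuclei of animal 2, DRD1 stood at 23.6 CPM (26 UMIs), DRD2 at 80.6 CPM (89 UMIs), PPP1R1B at 53.5 CPM (59 UMIs), GPR6 at 5.44 CPM (6 UMIs) and RARB at 294 CPM (325 UMIs). Only 19, 23, 42, 6 and 77 of these nuclei, in the same order of genes, held a UMI. For DRD2, PPP1R1B, GPR6 and RARB the pooled level exceeded the highest labelled subclass of that animal, at 4.93, 11.7, 1.24 and 122.3 CPM. In the 302 such nuclei of animal 1, DRD2 stood at 7.71 CPM (5 UMIs), while DRD1 and GPR6 had 0 UMIs, PPP1R1B had 3 and RARB 2. In the ambiguous non-neuronal nuclei, 138 per animal, DRD1 stood at 23.0 CPM in animal 1 and 10.3 CPM in animal 2, PPP1R1B at 10.3 CPM in animal 2, and RARB at 20.4 and 25.6 CPM, on 4 to 10 UMIs each. They were singled out because each rested on more than 3 UMIs. These nuclei entered no test.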

How the results depend on the processing

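The 17 subclass calls of the 4 tested genes came to 17 with DESeq2's size factors, 18 with DESeq2, 18 without the low-count filter (20 with GPR6, tested only there, in IT_A and IT_B), 17 without doublets, 17 without small subclasses and 19 with the animal as a replicate block, which also left the main calls in place and moved the count over all genes from 53036 to 64142. The block added DRD1 in IT_C and RARB in Vip and changed no other call of these genes. Thinned to 1000 UMIs, which leaves fewer counts and fewer genes to test, DRD2 and PPP1R1B were not tested, and of the 12 calls of DRD1 and RARB 8 were made again beside RARB in Vip, 9 in all, with 29598 calls over all genes and subclasses, 2998 between glutamatergic and GABAergic (6871 in full) and 4964 between neuronal and non-neuronal (7709 in full). DRD1 was then not called in IT_A, IT_B or between classes, where SEs were too large to use, nor RARB in Sst (adjusted p = 0.501) or OD (adjusted p = 0.085). Sums per class called 11921 in the latter. Thinned, DRD1 in L5NP was 47.9 CPM (41.0 in full) and GPR6 in IT_A 0.529 CPM (1.23 in full). Mean shares of positive nuclei, in full, thinned and with at least 2 UMIs, were 23.8%, 4.68% and 5.25% for DRD1 in L5NP, 4.19%, 0.658% and 0.874% for DRD2 in L6CT, 3.46%, 1.35% and 0.280% for PPP1R1B in astrocytes, 1.05%, 0.0529% and 0.0439% for GPR6 in IT_A, and 45.6%, 10.9% and 21.1% for RARB in Pvalb. With a pseudocount of 5 CPM 11 of the 25 most similar genes were shared. Without animal 1 or 2 no test was possible, and 9 and 11 of 25 log2 fold changes moved by more than their SE or changed sign. The log2 fold change of PPP1R1B between glutamatergic and GABAergic was then 2.24 or 4.66 (2.77 in full), that of RARB in OD -0.90 without animal 2 (-2.38 in full), that of RARB in OPC 3.33 without animal 2 (1.80 in full), and that of RARB between neuronal and non-neuronal -0.09 without animal 1 and 1.30 without animal 2 (0.48 in full). Without animal 1 or 2, RARB was 3.49 or 3.41 in IT_B (2.70 in full), -2.38 or -1.50 in Frem1 (-1.98) and -3.93 or -3.95 between glutamatergic and GABAergic (-3.31), and DRD1 was 1.84 or 2.63 in the latter (2.12). Without animal 1, DRD1 was 5.06 in OD (3.83) and 3.80 between neuronal and non-neuronal (3.03), and DRD2 0.53 between glutamatergic and GABAergic (-0.22 in full and -0.55 without animal 2). Without animal 2, DRD2 was 5.83 in L6CT (5.25), PPP1R1B 1.37 in IT_A (1.01) and RARB 2.79 in Pvalb (2.52). With 2 animals and few UMIs of DRD2 and GPR6, depth limits what these genes can show. The cause of these shifts was not tested.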
